A study of Mus musculus with 3 samples.

Results

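Nuclear receptor coregulators are the proteins through which receptors such as RXRA switch transcription on or off, and 9 of their genes were examined here for RXRA binding at the genes themselves. The genes were chosen by name, with earlier results of these data known. They were the corepressors Ncor1, Tbl1x, Hdac3 and Nrip1, and the coactivators Ncoa1, Ncoa2, Ncoa3, Ncoa6 and Med1. All 9 were found among 21900 protein-coding genes of the annotation. Every peak that touched a gene or the 50 kb on either side of it was taken, which gave 4 of 4047 peaks in HSC, 44 of 29848 in MPP library 1 and 31 of 19570 in MPP library 2, and no peak was counted for more than 1 gene. Libraries 1 and 2 of MPP are replicates 1 and 2 of the labels. CUT&RUN sequences the DNA that an antibody-guided nuclease cuts free beside its target, here RXRA. For HSC, 10000 haematopoietic stem cells (Lin-cKit+Sca1+CD48-CD150+) were used, and for each of the 2 MPP libraries 50000 multipotent progenitors (Lin-cKit+Sca1+CD150-), all sorted from bone marrow of C57BL/6 mice of about 10 months. All cells were treated for 1 h with 1 mM bexarotene, a drug that activates retinoid X receptors, so no untreated cells are compared here. The genotype label reads VavCre+; WT and the growth protocol reads Rxrabfl/fl (WT); Vav-Cre acts in blood cells. Animals were pooled, the HSC group is 1 library, and the labels do not say whether the MPP libraries came from separate pools. Peak lists do not show expression, so the sorted cell types could not be checked against marker genes.

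Without ligand, nuclear receptors can hold a corepressor complex in which NCOR1 is the scaffold, HDAC3 removes acetyl groups from histones and TBL1X links the complex to chromatin and takes part in its exchange. NRIP1 is a corepressor that binds receptors in the presence of ligand. Ligand shifts receptors towards coactivators: NCOA1, NCOA2 and NCOA3 form the steroid receptor coactivator family, NCOA6 belongs to a complex with histone methyltransferases, and MED1 is the Mediator subunit through which many receptors contact RNA polymerase II. RXR is the common dimer partner of several receptors that use these proteins.

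The annotated starts that carried, or lacked, a peak are shown first, because several of the peaks at gene ends missed the annotated start windows. RefSeq promoter windows of build GRCm38.p6, the same genome as mm10, run from 250 bases before to 50 bases after a transcription start and were given for 6 of the 9 genes. A peak overlapped 5.13% of all 32851 such windows in HSC, 24.3% in MPP library 1 and 22.9% in MPP library 2. Of the windows of these genes, an HSC peak overlapped that at the upper Nrip1 start. An MPP library 2 peak overlapped the one at the upper Ncor1 start. The Med1 window was overlapped by 26 bases of an MPP library 1 peak. The Nrip1 and Med1 peaks did not reach the start itself. A second Nrip1 window, which no peak overlapped, is given for contrast. So is the window of Acss2, a neighbour of Ncoa6, which a peak overlapped in all 3 libraries. Capitals mark matches, on either strand, to the nuclear receptor half-site AGGTCA, the ETS core CCGGAAG, the E box CACGTG or the SP/KLF box GGGCGG, and overlapping matches run together. Direct repeats of AGGTCA with a spacing of 1, 4 or 5 bases were searched too and were not found in any window printed.
Nrip1, upper start, chr16:76373778-76374077, minus strand: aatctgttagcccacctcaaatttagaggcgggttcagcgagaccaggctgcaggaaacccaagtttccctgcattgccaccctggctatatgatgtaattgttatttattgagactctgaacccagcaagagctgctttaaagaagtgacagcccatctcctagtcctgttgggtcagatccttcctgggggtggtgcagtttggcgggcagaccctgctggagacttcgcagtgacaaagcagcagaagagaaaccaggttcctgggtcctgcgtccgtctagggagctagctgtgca
Nrip1, second start, chr16:76373000-76373299, minus strand: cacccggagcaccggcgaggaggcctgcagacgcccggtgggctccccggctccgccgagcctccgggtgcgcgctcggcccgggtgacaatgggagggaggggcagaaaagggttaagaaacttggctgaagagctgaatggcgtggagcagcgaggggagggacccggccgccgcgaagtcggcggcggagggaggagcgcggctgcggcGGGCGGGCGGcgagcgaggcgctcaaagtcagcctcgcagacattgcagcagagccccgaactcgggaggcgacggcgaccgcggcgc
Ncor1, upper start, chr11:62457283-62457582, minus strand: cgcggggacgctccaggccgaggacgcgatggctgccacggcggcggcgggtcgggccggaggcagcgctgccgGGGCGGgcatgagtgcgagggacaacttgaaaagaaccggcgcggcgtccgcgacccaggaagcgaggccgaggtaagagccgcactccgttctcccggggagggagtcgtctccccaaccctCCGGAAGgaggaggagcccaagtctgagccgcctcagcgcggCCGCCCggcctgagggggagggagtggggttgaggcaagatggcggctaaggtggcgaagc
Med1, chr11:98192857-98193156, minus strand: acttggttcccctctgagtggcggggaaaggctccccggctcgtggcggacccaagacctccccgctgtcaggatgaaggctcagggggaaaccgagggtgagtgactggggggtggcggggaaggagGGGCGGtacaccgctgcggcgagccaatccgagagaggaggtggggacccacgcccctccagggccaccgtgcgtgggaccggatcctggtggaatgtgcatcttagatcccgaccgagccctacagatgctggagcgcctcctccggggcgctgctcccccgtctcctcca
Acss2, chr2:155517793-155518092, plus strand: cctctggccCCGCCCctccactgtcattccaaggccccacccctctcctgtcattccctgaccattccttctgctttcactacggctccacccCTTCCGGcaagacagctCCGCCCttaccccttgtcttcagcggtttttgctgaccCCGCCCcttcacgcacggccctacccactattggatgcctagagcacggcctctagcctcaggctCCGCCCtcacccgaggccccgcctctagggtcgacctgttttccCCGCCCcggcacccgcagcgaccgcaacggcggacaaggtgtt

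The Nrip1 window with the HSC peak held none of these motifs and was 52.7% G and C, at the median of 52.7% over all promoter windows, while the Nrip1 window without a peak was 73.3% G and C and held 2 overlapping SP/KLF boxes. The Ncor1 window held 1 ETS core and 2 SP/KLF boxes, the Med1 window 1 SP/KLF box and the Acss2 window 1 ETS core and 5 SP/KLF boxes. AGGTCA, the letters of the receptor half-site, was absent from the 5 windows printed and, of the other windows of the 9 genes, was found at Ncoa6 alone, in a window that no peak overlapped. It was present in 16.3% of all promoter windows and in 10.3% of those that HSC peaks overlapped, 11.2% for MPP library 1 and 11.1% for MPP library 2. The SP/KLF box was present in 72.7% of windows with an HSC peak, 66.8% with an MPP library 1 peak and 69.4% with an MPP library 2 peak, against 35.7% of all windows. The windows with a peak were richer in G and C, with medians of 62.3%, 62.0% and 61.7%, and the part of base composition in these shares was not tested. A match describes letters in the window and does not show a bound site.

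A peak at a gene end was found at 2 of the 9 genes in HSC (Tbl1x and Nrip1), 8 in MPP library 1 (all but Nrip1) and 5 in MPP library 2 (Ncor1, Tbl1x, Ncoa3, Ncoa6 and Med1). A gene end here is the 1 kb around the lower or upper coordinate of the gene. The same rule called 8.21% of all protein-coding genes in HSC, 41.2% in MPP library 1 and 36.0% in MPP library 2. With the MPP lists held to the length of the HSC list, keeping their highest folds, the counts were 2 in MPP library 1 and 1 in MPP library 2, where 8.83% and 10.1% of all genes were called. Tbl1x had such a peak in all 3 libraries, as 5.83% of all genes did, and 5 of the 9 genes had one in both MPP libraries, as 28.9% of all genes did. Hdac3, Ncoa1 and Ncoa2 had one in MPP library 1 and not in library 2, a pattern of 12.3% of all genes. With 9 genes and 1 HSC library these shares are descriptions without a test. No window of the 9 genes was without peaks in MPP: all 9 held at least 1 in each MPP library, as 78.8% and 72.7% of all genes did in libraries 1 and 2, and 3 held 1 in HSC, where 34.0% of all genes did.

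**Figure D1:**
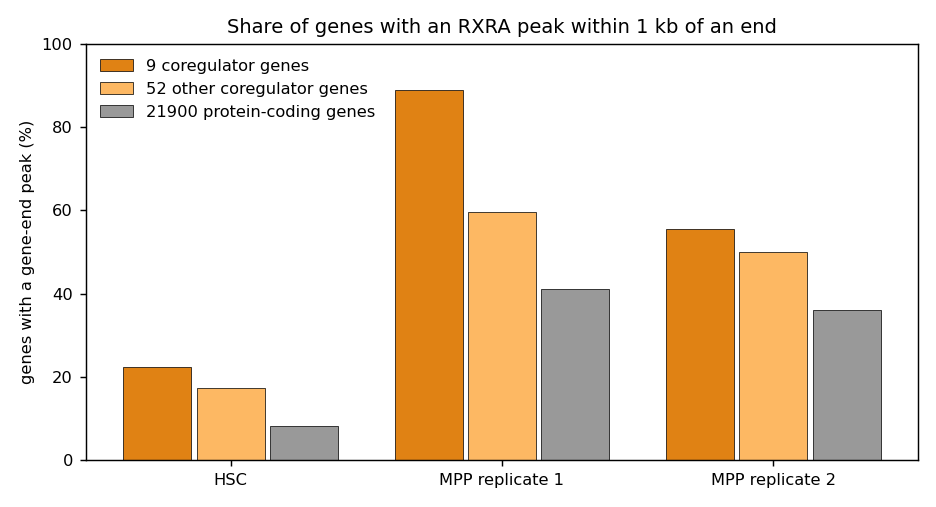
Percent of genes with an RXRA peak within 1 kb of a gene end in each library, for the 9 coregulator genes, 52 other coregulator genes and all 21900 protein-coding genes. The 9 genes stand at 2 genes in HSC, 8 in MPP library 1 and 5 in MPP library 2, where all genes stand at 8.21%, 41.2% and 36.0%.

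The libraries differ in depth, which bears on every absence below. Fold enrichment, the authors' value, is the summit pileup over its local background, with 1 added to each. The added 1 lowers the fold most where the background is low, as in HSC. The pileup in fragments was recovered from fold and p, and the lowest background in each list, taken as the genome-wide level, was 0.604 fragments in HSC, 2.87 in MPP library 1 and 1.08 in MPP library 2. The weakest signal called anywhere was 8.28 times that level in HSC, 3.48 times in MPP library 1 and 5.55 times in MPP library 2. A site with no HSC peak is therefore one that was not called at this depth. Intervals on pileups are exact Poisson at 95% and cover counting error only.

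**Figure D2:**
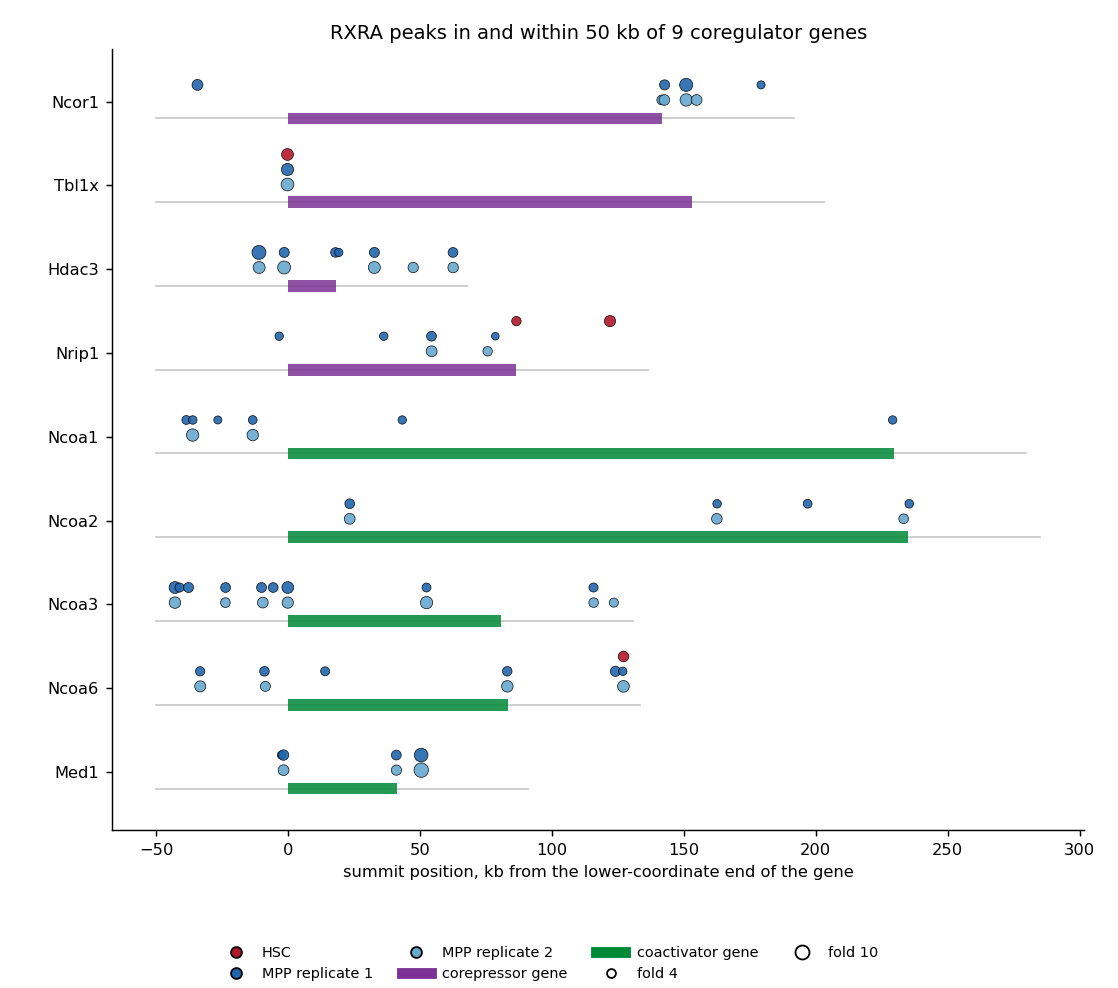
Positions of all peak summits in and within 50 kb of each gene, in kb from the gene's lower-coordinate end, with the gene as a bar, the flanks as a grey line and the point area set by fold enrichment. HSC points appear at Tbl1x, Nrip1 and the far flank of Ncoa6, and the windows of the other 6 genes hold MPP points alone.

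Tbl1x carried overlapping peaks at 1 site in every library and no other peak. Tbl1x, on chromosome X from 77509549 to 77662722 (mm10), had its peak just below the lower end of the gene, from 77509008 to 77509452 in HSC, from 77509236 to 77509512 in MPP library 1 and from 77509188 to 77509510 in MPP library 2. The fold was 7.19 in HSC, 7.49 in MPP library 1 and 8.28 in MPP library 2, which rank at percentiles 87.5, 95.2 and 89.3 of their lists. The pileups were 12 fragments in HSC (6.20 to 20.96), 28 in MPP library 1 (18.6 to 40.5) and 18 in MPP library 2 (10.7 to 28.4). Summits lay 430, 251 and 241 bp from the gene end, so those of the MPP libraries were 10 bp apart. The HSC summit, at 77509119, lay below the start of both MPP peaks, which overlap the HSC peak only in part. The RefSeq promoter window of Tbl1x, which starts at 77510977, did not overlap any of these peaks. The rest of the 153174 bp gene and its flanks were free of called peaks, giving 0.395 peaks per 100 kb in each library, where the median of all genes was 0 in HSC, 1.98 in MPP library 1 and 1.405 in MPP library 2 (lower quartiles 0, 0.636 and 0). Chromosome X held few peaks, 1.43% of the HSC list, 0.962% of MPP library 1 and 1.34% of MPP library 2, and 12 of its 966 protein-coding genes (1.24%) had a gene-end peak in all 3 libraries. In single libraries 2.38% of them had one in HSC, 12.5% in MPP library 1 and 14.9% in MPP library 2.

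By the sum of differences in rank percentile over the 3 libraries, the genes whose best gene-end peak was most like that of Tbl1x, among 1275 others with such a peak in every library, were Tcte3 and Ermard on chromosome 17, with the same peaks, at a sum of 2.24, and Polr2j, an RNA polymerase II subunit, at 2.34. Their folds were 7.07 in HSC for Tcte3 and Ermard and 7.11 for Polr2j.

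Most Ncor1 peaks lay around or beyond the end that faces Pigl, an enzyme gene of glycolipid anchor synthesis 1027 bp away. Ncor1 lies on chromosome 11 from 62315663 to 62457414, with its annotated starts on the minus strand and so the upper end upstream. In MPP library 1 a peak of fold 5.18 and 21 fragments (13.0 to 32.1) ran from 62458255 to 62458666, and in MPP library 2 a peak of fold 5.82 and 14 fragments (7.65 to 23.5) ran from 62458174 to 62458579. Both cover the start of Pigl, with summits 24 and 124 bp before it, so they cannot be assigned to either gene. A second MPP library 2 peak, from 62457218 to 62457517, had its summit 9 bp past the Ncor1 start itself, with a fold of 4.84 and 11 fragments (5.49 to 19.7). It had no counterpart in MPP library 1, the deeper library. The strongest peaks of the Ncor1 window lay 9186 and 9214 bp above the gene, inside Pigl, with folds of 8.80 in MPP library 1 and 7.84 in MPP library 2. No HSC peak was called in the gene or its flanks.

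Hdac3, a gene of 18045 bp on chromosome 18 from 37936971 to 37955015, stands in a cluster of genes and its window was the densest of the 9, with 6 peaks in MPP library 1 and 5 in MPP library 2, or 5.08 and 4.24 per 100 kb. The upper quartile of all genes was 3.99 and 2.84. The nearest neighbour, Rell2, begins 39 bp away, and 1 MPP library 1 peak of fold 4.68 and 19 fragments (11.4 to 29.7), from 37954897 to 37955137, covered the ends of both genes. MPP library 2 had no peak there. Its nearest one, of fold 8.53, lay 1444 bp below Hdac3 at the end of Diaph1, a cytoskeletal formin gene, where MPP library 1 had a fold of 5.17. The highest fold of the Hdac3 window, 9.92 in MPP library 1, lay 10986 bp below the gene inside Diaph1, where MPP library 2 had 7.26, and it was the single peak of the 79 examined that ranked in the top 1% of its list. No HSC peak was called.

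At Nrip1 the HSC and MPP libraries had peaks at different places. HSC had 2 peaks, and neither overlapped a peak of MPP. The first, from 76373849 to 76374235 on chromosome 16, lay just upstream of the upper start, inside and beyond the window printed above. Its summit was 167 bp before that start, with a fold of 4.54 and 8 fragments (3.45 to 15.8). The second, from 76409392 to 76409711, lay 35633 bp from the gene, with a fold of 6.45 and 10 fragments (4.80 to 18.4). The MPP libraries had their shared peak inside the gene, at 76341759 to 76342097 over both, with folds of 4.89 in library 1 and 6.02 in library 2. MPP library 1 had 3 more peaks, of fold 2.98 to 3.62, and MPP library 2 had 1 more, of fold 4.53, all at sites of their own. Nrip1 was the 1 gene of the 9 with a gene-end peak in HSC and in neither MPP library, a pattern that 65 genes (0.297%) showed among all. The start peak ranks at percentile 16.2 of HSC peaks by fold and has a q of 0.00487, and of the HSC peaks of the 9 genes it is the weakest. Its signal was 13.3 times the genome-wide background (5.72 to 26.1) and that of the second peak 16.6 times (7.95 to 30.5), where the weakest call was 3.48 times in MPP library 1 and 5.55 times in MPP library 2. No replicate of HSC is given against which these peaks could be repeated. Nrip1 has no coding neighbour within 50 kb, and the closest, Samsn1 and Usp25, lie 378137 and 639857 bp away.

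**Figure D3:**
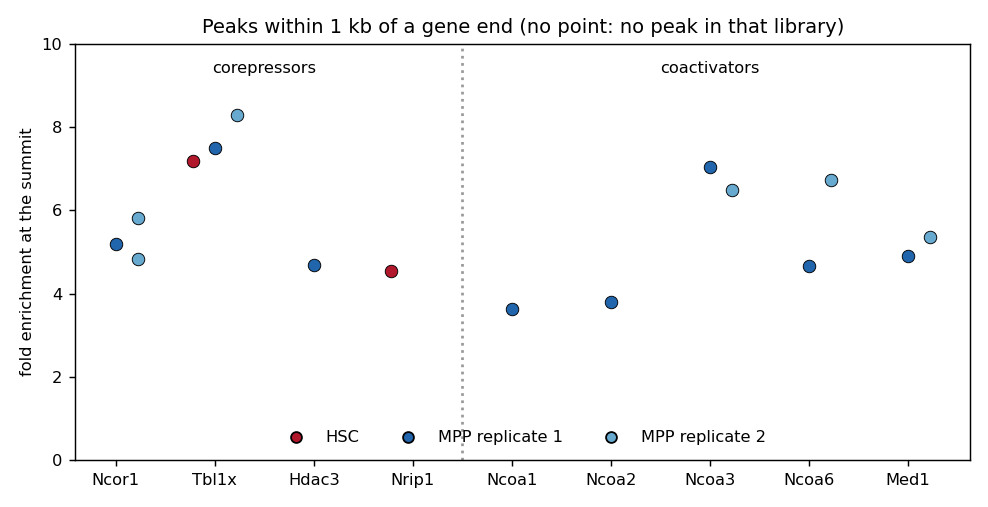
Fold enrichment of every peak within 1 kb of an end of the 9 genes, by library, corepressor genes on the left and coactivator genes on the right. Tbl1x has a point in each library, at 7.19, 7.49 and 8.28, Nrip1 has a single HSC point at 4.54, and no coactivator gene has an HSC point.

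Among the steroid receptor coactivator genes, Ncoa3 had the peak that both MPP libraries placed at a gene end, and Ncoa1 and Ncoa2 had gene-end peaks in MPP library 1 alone. At Ncoa3, on chromosome 2 from 165992637 to 166073242, the peak covered the lower end, from 165992472 to 165992791 with a fold of 7.05 and 28 fragments (18.6 to 40.5) in MPP library 1, and from 165992427 to 165992814 with a fold of 6.50 and 15 fragments (8.40 to 24.7) in MPP library 2. The summits were 6 bp apart. LOC115489489, a predicted gene that overlaps this end of Ncoa3, has an end within 1 kb of the same peaks. The Ncoa3 window held 9 peaks in MPP library 1 and 7 in MPP library 2, the most of the 9 genes, 6 of the 9 and 3 of the 7 in the lower flank. A further shared peak lay inside the gene, with folds of 4.04 and 7.69 in libraries 1 and 2.

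Ncoa1 and Ncoa2 are the longest of the 9 genes, at 229845 and 235123 bp. Their windows held 1.82 and 1.19 peaks per 100 kb in MPP library 1 and 0.606 and 0.895 in MPP library 2, where the medians of all genes were 1.98 and 1.405. Ncoa1, on chromosome 12 from 4247362 to 4477206, had in MPP library 1 a peak of fold 3.62 and 13 fragments (6.92 to 22.2) inside its upper end, 674 bp from it, and another of the same fold 43.3 kb inside the lower end. MPP library 2 had no peak in the gene. The peaks that both libraries shared lay in the lower flank, at the paired ends of Cenpo and Ptrhd1 with folds of 3.92 and 6.67, and 36.1 kb below the gene with folds of 3.72 and 7.81. MPP library 1 had 2 more peaks in that flank, with folds of 4.05 and 3.32. Ncoa2, on chromosome 1 from 13139105 to 13374227, had a peak of fold 3.81 in MPP library 1 beyond its upper end, with a summit 365 bp away, and MPP library 2 had a peak of fold 4.82 inside the same end, 1765 bp from it. The libraries shared a pair of sites within Ncoa2, with folds of 4.79 and 3.71 in library 1 and of 5.97 and 5.69 in library 2. Neither gene had an HSC peak.

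Ncoa6 and Med1 each had a gene-end peak in both MPP libraries, of ordinary strength for those lists. Ncoa6, on chromosome 2 from 155390656 to 155473911, had it at the upper end, with a fold of 4.65 and 17 fragments (9.90 to 27.2) in MPP library 1 and a fold of 6.73 and 13 fragments (6.92 to 22.2) in MPP library 2, and summits 33 bp apart. Its RefSeq promoter window, at an inner start, had no peak. The HSC peak of the Ncoa6 window ran from 155517760 to 155518202, with its summit 43912 bp above the gene, and had a fold of 5.70 and 10 fragments (4.80 to 18.4). It covers the start of Acss2, an acetyl-CoA synthetase gene, and overlapped a peak of fold 3.62 in MPP library 1 and 7.02 in MPP library 2. Ncoa6 is not the nearest gene to it.

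At Med1, on chromosome 11 from 98152154 to 98193313, the peak covered the upper end, with a fold of 4.91 and 18 fragments (10.7 to 28.4) in MPP library 1 and 5.35 and 11 fragments (5.49 to 19.7) in MPP library 2. Its summits lay 81 and 38 bp inside the gene and 43 bp apart, above the annotated promoter window. Stronger sites flanked it: folds of 9.54 and 10.6 in libraries 1 and 2 at the end of Cdk12, a transcription elongation kinase, and of 5.59 and 5.89 near Fbxl20, an F-box gene 1233 bp below Med1. No HSC peak was called in the Med1 window.

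Set against each other, the peak counts of corepressor and coactivator genes did not resolve a difference in density. In HSC the 4 corepressor genes held 3 peaks and the 5 coactivator genes 1, in windows of 799 and 1170 kb, a density ratio of 4.39 with an exact binomial interval of 0.353 to 231. In MPP library 1 they held 15 and 29 peaks, a ratio of 0.757 (0.377 to 1.46), and in MPP library 2 they held 12 and 19, a ratio of 0.924 (0.409 to 2.01). Without Tbl1x, which had 1 peak in a long gene, the ratios were 1.03 in MPP library 1 and 1.24 in MPP library 2. The intervals include 1 in each library and are wide enough to hold a difference in either direction. They pool peaks over genes and leave out the spread between genes. In MPP library 1, corepressor windows ran from 0.395 peaks per 100 kb at Tbl1x to 5.08 at Hdac3. The coregulator gene was the nearest coding gene for 3 of 4 peaks in HSC, 16 of 44 in MPP library 1 and 10 of 31 in MPP library 2. The same share for the windows of all genes is not given here, so these counts cannot be called high or low. Gene-end peaks were called at 2 of 4 corepressor and 0 of 5 coactivator genes in HSC, 3 and 5 in MPP library 1, and 2 and 3 in MPP library 2. All genes stood at 8.21%, 41.2% and 36.0%. The wider list below went the other way in HSC, with 2 of 20 corepressors and partners (10%) and 7 of 32 coactivators and partners (21.9%). Neither difference was tested. Inside the gene bodies lay 4 summits at corepressor and 9 at coactivator genes in MPP library 1, and 3 and 6 in MPP library 2. Per 100 kb of gene these were 1.00 and 1.34 in MPP library 1, beside 1.60 over all genes, and 0.751 and 0.896 in MPP library 2, beside 1.01. Of the 8 genes between 40 and 240 kb, a range chosen after the values were seen, 0 had a summit inside in HSC and 6 in each MPP library, where all genes of that length stood at 13.9%, 65.6% and 51.0%.

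Merged across libraries, the peaks made 54 sites, of which 2 were called in all 3 libraries, 21 in both MPP libraries and not HSC, 21 in MPP library 1 alone, 8 in MPP library 2 alone and 2 in HSC alone. Of the 44 MPP library 1 peaks, 23 overlapped a library 2 peak (52.3%, exact binomial interval 36.7 to 67.5), where 44.9% of the whole list did. For the 31 library 2 peaks the share was 74.2% (55.4 to 88.1), against 68.1%. The shares were 53.3% (26.6 to 78.7) of library 1 peaks at corepressor genes and 51.7% (32.5 to 70.6) at coactivator genes. Summits of the 23 shared sites were 34 bp apart at the median, and those of all 13404 overlapping pairs 36 bp. The fold was higher in MPP library 2 at 18 of the 23 sites, as it was for 74.4% of all overlapping pairs. The 5 exceptions were the sites beside Ncor1 inside Pigl and beside Hdac3 inside Diaph1, and 3 sites at Ncoa3. Of the 23 sites, 10 lay within 1 kb of an end of another coding gene, and the matching share over all overlapping pairs is not given here.

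**Figure D4:**
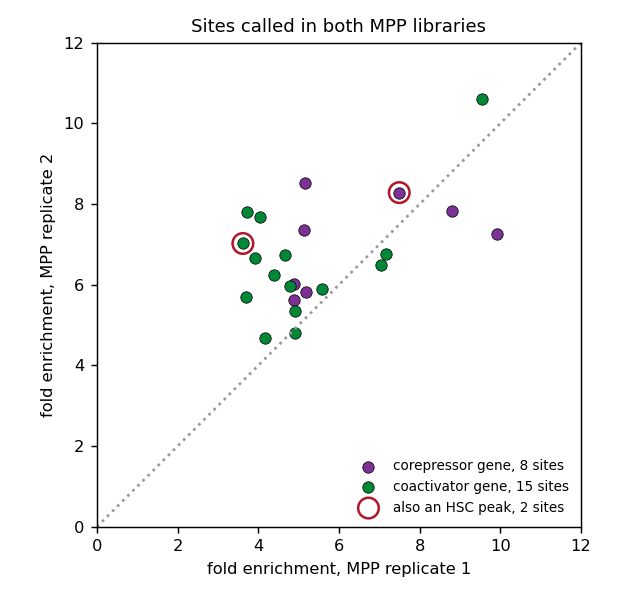
Fold enrichment in MPP library 2 against MPP library 1 for the 23 sites called in both libraries, coloured by class of the nearby coregulator gene, with a dotted line of equal fold. At 18 sites the point lies above the line, and the sites at Tbl1x and Acss2 are ringed as also called in HSC.

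The HSC list overlapped MPP at 2 of its 4 peaks here (50%, 6.76 to 93.2), at Tbl1x and Acss2, where 85.2% of all HSC peaks overlapped either MPP library and 61.6% overlapped both. With the MPP lists held to the HSC length the share was 25%. The share of all HSC peaks under those shorter lists is not given here, so the 25% cannot be set against the 85.2%. Both HSC peaks without a counterpart are those of Nrip1. In the other direction, all 23 sites shared by the MPP libraries had a signal in MPP library 2 above the 8.28 times background that HSC needed, and 7 also had it in MPP library 1. Of all 13404 overlapping MPP pairs, 4746 had both signals at or above that level, and the share for MPP library 2 alone is not given here. Those 7 lay in the windows of Ncor1, Tbl1x, Hdac3, Ncoa3 and Med1. All lay in the flanks except the sites at Tbl1x and at the lower end of Ncoa3. Of the 7, the site at Tbl1x alone was called in HSC. Among all overlapping MPP pairs, 26.4% of those with both signals above that level were called in HSC, and 19.1% of pairs of any signal, where 2 of the 23 sites here were. The Acss2 site was called in HSC with a signal of 4.53 times background in MPP library 1, below that level. The signal at Tbl1x was 19.9 times background in HSC (10.3 to 34.7), 9.76 times in MPP library 1 (6.48 to 14.1) and 16.6 times in MPP library 2 (9.87 to 26.3), and the interval of MPP library 1 overlaps those of HSC and MPP library 2.

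**Figure D5:**
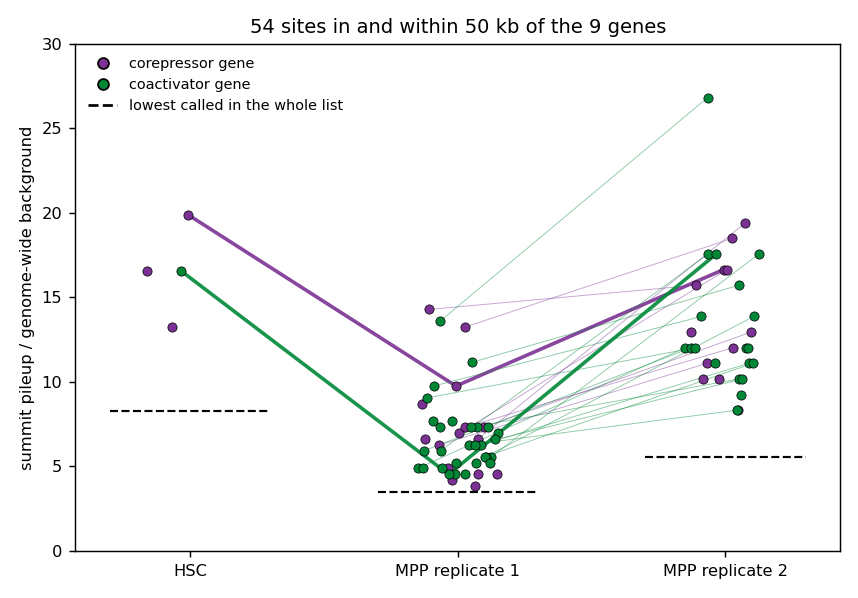
Summit pileup divided by the genome-wide background of its library for the 54 sites in and around the 9 genes, with lines joining peaks of the same site (thick for sites in all 3 libraries) and dashes at the lowest value called in the whole list. HSC points stand between 13.3 and 19.9, over a lowest call of 8.28, and most MPP library 1 points lie below 8.28.

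Gene-end peaks were also counted in a wider list of 52 coregulator genes that leaves out the 9. They were found at 9 of these in HSC (17.3%), 31 in MPP library 1 (59.6%) and 26 in MPP library 2 (50%), beside the 8.21%, 41.2% and 36.0% of all genes, and the differences were not tested. Of the 20 corepressors and partners in it, 2, 10 and 8 were marked in HSC, MPP library 1 and MPP library 2, and of the 32 coactivators and partners 7, 21 and 18. Marked in all 3 libraries were 7 of the 52, where 5.83% of all genes were. They were 1 of the 20 corepressors and partners, the histone deacetylase Hdac5, and 6 of the 32 coactivators and partners. By HSC fold the coactivators were led by Carm1, an arginine methyltransferase that methylates histone H3, with folds of 7.44 in HSC, 4.14 in MPP library 1 and 6.85 in MPP library 2. Ascc3, a helicase of the activating signal cointegrator complex, had 6.86, 7.49 and 7.67. Prmt1, another arginine methyltransferase, and Trim24, a reader of histone marks, had 5.65 and 5.44 in HSC, Trrap, a scaffold of acetyltransferase complexes, had 5.09, and Med14, the Mediator backbone subunit, had 4.96. Gps2, a subunit of the NCOR complex, had folds of 5.50 in HSC and 4.49 in MPP library 1, and Tbl1xr1, the paralogue of Tbl1x, had no gene-end peak in any library. Of the acetyltransferases in the list, Ep300, Crebbp, Kat2a and Kat2b had none either, and Kat5 had one of fold 3.28 in MPP library 1. No gene of the wider list was marked in HSC alone, and 18 were marked nowhere, where 51.4% of all genes were.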

How the data were processed

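RXRA CUT&RUN was measured in 3 libraries, 1 of HSC and 2 of MPP. The submitters' processing notes name MACS2 2.1.4, Bowtie2 2.3.4.1, Trim Galore 0.4.2 with cutadapt 1.9.1, and build mm10. Not given in the sources used here: settings, duplicate handling, any control library. The authors deposited 1 peak list per library in the narrowPeak layout, so peaks were called per library. The deposited fold enrichment is a ratio of summit pileup to local background, with 1 added to each. Columns of −log10 p-value and −log10 q-value were deposited beside it. The weakest q was 0.0995 in HSC, 0.0971 in MPP library 1 and 0.0993 in MPP library 2. The deposited score restates 10 times −log10 q and was not used. Peak names in the HSC and MPP library 1 lists share a tag that the other list lacks, and its meaning is not stated.

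Gene ends came from a RefSeq table of GRCm38.p6 without exons, so exonic and intronic peaks were not told apart. Strand was taken from the RefSeq promoter table, which has no entry for Hdac3, Ncoa2 and Ncoa3, and which end is the start was not determined for them. Starts were read as counted from 1. Overlap meant at least 1 bp. Each pileup is the whole number that gives both the deposited fold, with 1 added to pileup and background, and the Poisson p (tolerance 0.001 on the −log10 scale). Such a number existed for 99.98% of peaks in HSC, 100% in MPP library 1 and 99.99% in MPP library 2. The steps were tested on simulated data. Python 3.11.15, pandas 2.3.3 and scipy 1.17.1 were used.

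The genes and lists were chosen with earlier results of these data known. With 1 HSC library no test between cell types was made, and no p-value is given. Total reads are not given, so depth rests on the recovered background. Named genes are the 9 genes, coding genes sharing a gene-end peak with them, their nearest coding neighbours, at most 8 other coregulators marked in all 3 libraries, and the 3 genes most like a gene marked in all 3. Other genes at the flanking peaks, and Gps2, Tbl1xr1, Ep300, Crebbp, Kat2a, Kat2b and Kat5 were named after their values were seen. Alternatives were a flank of 10 kb or none, q at or below 1e-05, MPP lists held to the HSC length by fold, the nearest gene alone, gene-end windows of 500 bp and 5 kb, overlap of 50% or a gap of 1 kb, each MPP library left out, and Tbl1x or Med1 left out. Peak sequences were not analysed here.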

Additional observations from a re-analysis of the deposited data

How the results depend on the processing

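Of 44 alternative values, 29 stayed within 1.5 times the reported count or inside the reported interval. The 15 that moved were all counts of peaks or genes, and most alternative counts moved. Every share and density ratio stayed inside its interval, but those intervals were wide, as from 0.353 to 231 for the HSC ratio. Staying inside them therefore says little about stability. No paired analysis was possible because no result comes from a test and HSC has 1 library. The number of peaks counted follows the area and list used. With a 10 kb flank it was 2 in HSC, 27 in MPP library 1 and 18 in MPP library 2, and with the gene body alone 0, 14 and 10. With q at or below 1e-05 it was 2 in HSC and 26 in MPP library 1. With MPP lists held to the HSC length it was 6 and 8 in MPP libraries 1 and 2, and with peaks given to the nearest coding gene alone 16 and 10. Genes with a gene-end peak numbered 1 in HSC with q at or below 1e-05, the peak at Nrip1 being lost (2.00% of all genes were then called), and 2 and 1 in MPP libraries 1 and 2 with the lists held to the HSC length (8.83% and 10.1%). The smaller and larger end windows, the overlap rules and leaving out either MPP library (50% of HSC peaks shared in each case, against 25% with the MPP lists held to the HSC length) did not move a count past these bounds. The density ratio of corepressor to coactivator genes stayed inside its interval throughout, and crossed 1 in both MPP libraries without Tbl1x (1.03 and 1.24). In HSC it has no value for the gene body alone or at the stricter q, where coactivator genes held 0 peaks.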

Other observations

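The genes nearest on either side of the 9 are 17 distinct coding genes, and a gene-end peak was called at 0 of them for HSC, 11 for MPP library 1 and 9 for MPP library 2, where 8.21%, 41.2% and 36.0% of all genes did. The 8 with one in both MPP libraries, where 28.9% of all genes had one, were Pigl, Diaph1, Samsn1, Usp25, LOC115489489, Trp53inp2, Fbxl20 and Cdk12. The peaks of Pigl and LOC115489489 are those already counted at the ends of Ncor1 and Ncoa3. Peaks at ends of Diaph1, Trp53inp2, Fbxl20 and Cdk12 are among those counted in the flanks of Hdac3, Ncoa6 and Med1. The neighbours of Tbl1x, Ncoa1 and Ncoa2, 5 genes in all, had none in any library. Genes that overlap a member were taken as neighbours too, and for Ncoa1 the gene on both sides was Gm51963, which overlaps Ncoa1 itself. Cenpo and Ptrhd1, whose paired ends below Ncoa1 held a peak in both MPP libraries, are therefore not among the 17. Trp53inp2, which takes part in autophagy and lies 809 bp below Ncoa6, had adjacent peaks that did not overlap, with folds of 4.67 in MPP library 1 and 5.16 in MPP library 2. Ggt7, above Ncoa6, had a fold of 5.33 in MPP library 1 alone. Of the peaks counted for the 9 genes, 1 of 4 in HSC, 14 of 44 in MPP library 1 and 12 of 31 in MPP library 2 lay within 1 kb of an end of another coding gene. The matching share over all peaks is not given here, so these counts do not set the 9 genes apart.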
